A study of Mus musculus with 16 samples.

Results

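Claudins are the membrane proteins that form the strands of tight junctions, the seals between neighbouring epithelial or endothelial cells. Some of them open pores between the cells that let chosen ions or water through, and others close the seal, so the claudins of a nephron segment set what can pass beside its cells. The kidney uses a different set in each segment, from the leaky proximal tubule to the tight collecting duct. Here, 10 claudin genes, chosen by name, were followed in whole kidneys of Hes1 conditional knockout and control mice. They were Cldn2 of the proximal tubule, Cldn10, Cldn16 and Cldn19 of the thick ascending limb, Cldn1 of Bowman's capsule, Cldn5 of endothelium, and Cldn3, Cldn4, Cldn7 and Cldn8 of the collecting duct. These are 10 of the 28971 genes in the count table, and all 10 were among the 15615 genes with enough counts to be tested.

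The study looked for genes that differ in expression when Hes1, a transcriptional repressor downstream of Notch receptors, is lost, within work on the cell types of the collecting duct. The mutant mice carried Pax8-rtTA, TRE-Cre and Hes1 f/f. The Pax8 promoter drives rtTA in tubule epithelium, including the collecting duct but not endothelium. With doxycycline, rtTA turns on TRE-Cre, and Cre removes the floxed Hes1. These mice are called Hes1 cKO (conditional knockout) or mutants, and their littermates, given only as wild type in the labels, are called control. All mice, controls included, drank doxycycline at 1 mg/mL with 5% sucrose for 1 week from 3 weeks of age, and RNA was taken from whole kidney. The 3 Hes1 cKO and 4 control libraries used here are those whose names show a genotype, and numbers such as control 2 or mutant 3 only name a library.

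The libraries held 16973931 to 20420422 counts. Levels are given as CPM, counts of a gene per 1000000 counts of its library after scaling of the libraries by TMM. Hes1 was at 19.8, 17.2 and 17.5 CPM in mutants 1, 2 and 3, against 42.8, 51.0, 67.6 and 60.9 CPM for controls 1 to 4, lower in every library named as mutant. Its log2 fold change was -1.61 with SE 0.16 and an adjusted p of 0.00357 by edgeR. Xist, which is expressed in females, was at 342 CPM in mutant 3, 333 in control 3 and 367 in control 4 and at most 0.371 CPM in the other 4 libraries. Markers of the adrenal gland summed to 849.3 CPM in mutant 3, 657.8 in control 1 and 170.8 in control 2, against 6.88 to 47.7 CPM in the other libraries.

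None of the 10 claudins was called different between Hes1 cKO and control. A gene is called when its p from edgeR's quasi-likelihood test, adjusted by Benjamini-Hochberg over all tested genes, is under 0.05, and 0.339% of the tested genes (53) were called. Before adjustment, 4 of the 10 claudins had an edgeR p under 0.05, namely Cldn4 and Cldn7 with higher means in Hes1 cKO and Cldn10 and Cldn16 with lower ones. The same held for 5.95% of all tested genes, 3.34% with a higher and 2.61% with a lower mean. The claudins were chosen with earlier results of these data known, so these shares are no test of the claudins as a group. The 4 collecting duct claudins had positive log2 fold changes, with a median of 0.25, and the 3 limb claudins and Cldn2 had negative ones. The signs of Cldn3, Cldn8 and Cldn19 turned in some subsets of the libraries. Over all 10 the median was 0.025, beside -0.0064 over all tested genes, of which 48.4% had positive values. In whole-kidney RNA, fewer cells of a type and less RNA per cell cannot be told apart.

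**Figure D1:**
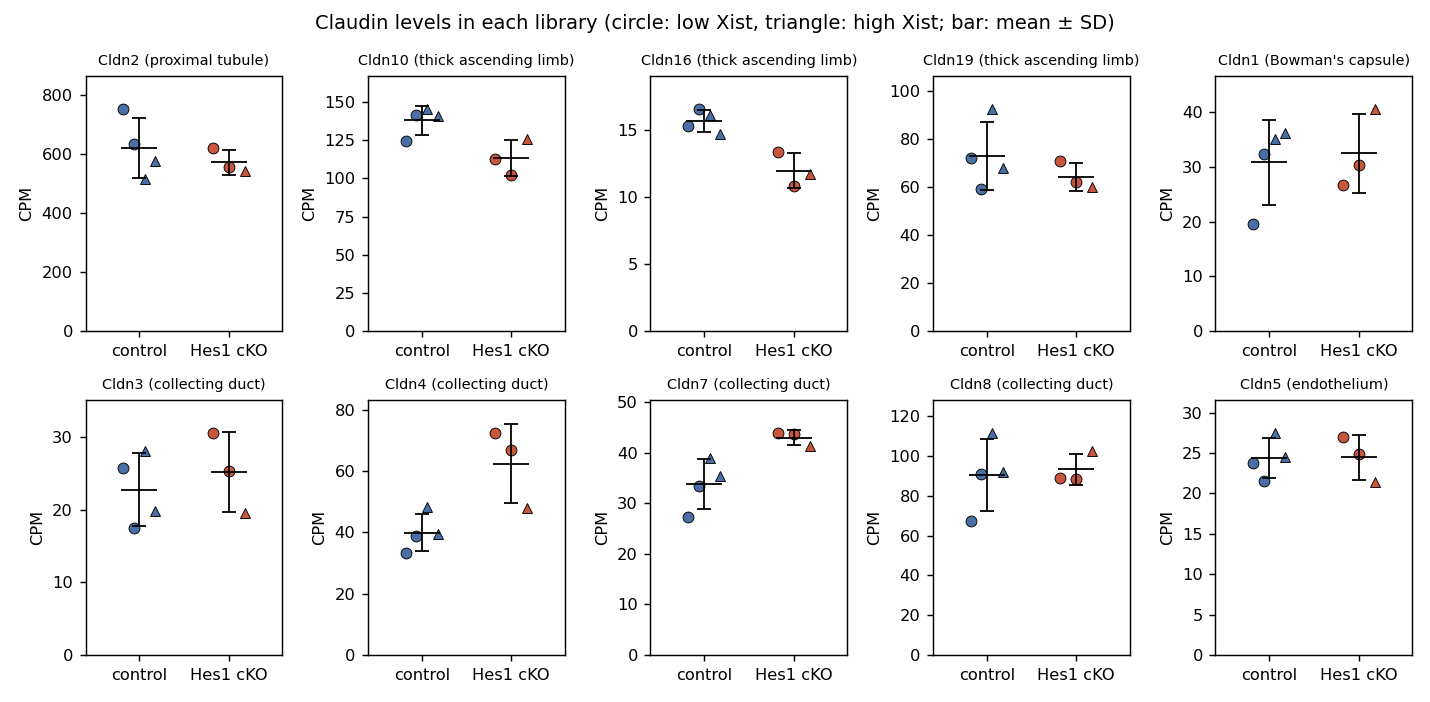
Level of each claudin in CPM (vertical axes start at 0) in the 4 control and 3 Hes1 cKO libraries. Circles are libraries with low Xist, triangles those with high Xist, and bars the mean ± SD of a group. The groups were apart only for Cldn7 and Cldn16, and nearly so for Cldn4 and Cldn10.

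Per length of transcript the highest and the lowest of the claudins stood apart in the control kidneys. Levels of different genes were compared as CPM per kilobase of annotated exon. Cldn2, which forms a pore for sodium and water in the proximal tubule, was the highest at 186 ± 30.5 CPM per kilobase (SD, n = 4). Cldn10, the sodium pore of the thick ascending limb, followed at 53.3 ± 3.61 CPM per kilobase, and Cldn8, a sealing claudin of the distal nephron and collecting duct, at 38.4 ± 7.72. The ranges of these 3 genes did not overlap, and Cldn4 came next at 22.0 ± 3.40, its highest library (26.6) under the lowest of Cldn8 (28.5). Cldn3, Cldn7, Cldn5 and Cldn19 had means of 18.1, 17.3, 17.2 and 17.1 CPM per kilobase and could not be ordered within their spread. Cldn16 at 13.4 overlapped with Cldn19, and Cldn1, at 6.36 ± 1.59 (highest library 7.49), was the lowest. In Hes1 cKO the mean of Cldn4 was 34.4 CPM per kilobase, closer to the 39.6 of Cldn8. Exon length was taken over all annotated transcripts of a gene, so a gene with long minor transcripts is placed too low.

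The collecting duct claudins were taken first. Cldn4 forms, together with Cldn8, a paracellular path for chloride in this segment, Cldn8 is needed to bring Cldn4 into the junction, Cldn7 lies along the lateral membrane of collecting duct cells, and Cldn3 is a sealing claudin. Cldn4 (ENSMUSG00000047501) was at 72.5, 66.9 and 47.9 CPM in mutants 1, 2 and 3, against 33.3, 38.7, 48.2 and 39.5 CPM for controls 1 to 4. Mutants 1 and 2 were above every control, while mutant 3 lay just under control 3. The log2 fold change was 0.64, with an unadjusted 95% interval of 0.29 to 1.00, the largest in size of the 10 claudins. The edgeR adjusted p was 0.327 (unadjusted 0.00262), the exact two-sided permutation p 0.0857. DESeq2's Wald test called Cldn4 (adjusted p 0.0184, with 0.814% of genes called), as did edgeR without a low-count filter (adjusted p 0.0346, with 0.352% called).

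The 2 Hes1 cKO libraries in which Cldn4 was high were those with low Xist. Among low-Xist libraries (2 of each group) its log2 fold change was 0.95 (edgeR adjusted p 0.0791), and among high-Xist libraries (1 Hes1 cKO, 2 control) it was 0.13. The high-Xist stratum has a single mutant library, so its value and the difference between strata assume that this library varies like the others. The difference between the strata was -0.82 on the log2 scale, with an unadjusted 95% interval of -1.33 to -0.32 and an edgeR adjusted p of 0.793 over all genes. The strata were compared after the values were seen, and the difference was not called. Mutant 3, the only high-Xist mutant library, is also the mutant with the most adrenal RNA, while among the controls the adrenal markers were high in the low-Xist libraries 1 and 2. With the adrenal markers as a covariate the log2 fold change of Cldn4 was 0.67 (edgeR adjusted p 0.0660). Without mutant 3 the log2 fold change was 0.80 (edgeR adjusted p 0.0870).

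Cldn7 (ENSMUSG00000018569) was at 43.9, 43.7 and 41.2 CPM in mutants 1, 2 and 3, against 27.2, 33.5, 38.9 and 35.4 CPM for controls 1 to 4. The groups did not overlap, with every Hes1 cKO library above every control, as was the case for 3.71% of all tested genes. The log2 fold change was 0.35 (95% interval 0.08 to 0.62, edgeR adjusted p 0.693), and the exact permutation p was 0.0571. Its value was 0.53 among low-Xist and 0.15 among high-Xist libraries, and was 0.26 without control 1, its lowest library.

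Cldn8 (ENSMUSG00000050520), the most abundant of the 4, did not separate the groups. It was at 88.8, 88.4 and 102 CPM in mutants 1, 2 and 3, against 67.2, 91.0, 112 and 92.1 CPM for controls 1 to 4. All Hes1 cKO values lay within the range of the controls. The log2 fold change of 0.04 had an interval of -0.30 to 0.38 (edgeR adjusted p 0.992), and its sign turned without control 1 (-0.076). The ratio of Cldn4 to Cldn8, the partners of the chloride path, was 0.816, 0.756 and 0.468 in mutants 1, 2 and 3 and 0.425 to 0.496 in the controls. Here too mutant 3 lay among the controls and the other mutant libraries above them.

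Cldn3 (ENSMUSG00000070473) was at 30.6, 25.4 and 19.6 CPM in mutants 1, 2 and 3, against 25.8, 17.4, 28.1 and 19.8 CPM for controls 1 to 4. The groups were mixed, with a log2 fold change of 0.15 (interval -0.30 to 0.59, edgeR adjusted p 0.975). Cldn3 and Cldn4 are neighbours on chromosome 5, 39.3 kilobases apart (GRCm38, GENCODE M21) and on opposite strands. The ratio of Cldn4 to Cldn3 was 2.37, 2.64 and 2.45 in mutants 1, 2 and 3, against 1.29, 2.22, 1.72 and 1.99 for controls 1 to 4, with no overlap between the groups. This ratio was formed after the values were seen and was not tested. The other ratios formed all overlapped between the groups. They were Cldn4 to Cldn8, Cldn4 to Cldn7, Cldn16 to Cldn19 and Cldn10 to Cldn16. The 3′ end of Cldn3, from base 134987433 to 134987472, overlaps an antisense gene. Without strand, reads from this short stretch alone cannot be told from those of that gene.

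**Figure D2:**
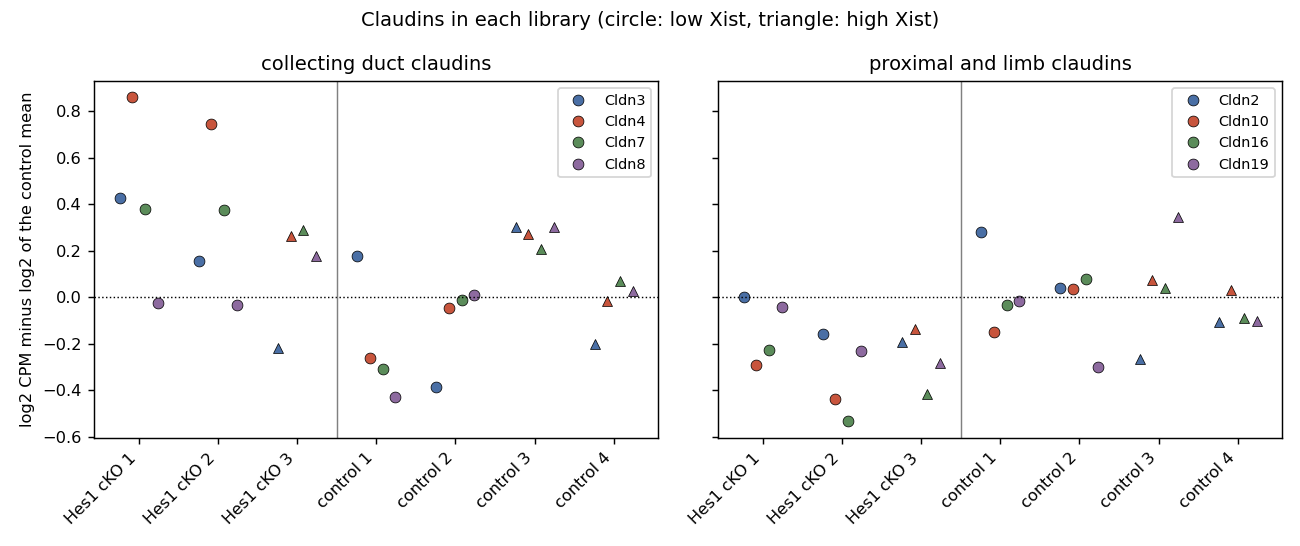
Level of 8 claudins in each library as log2 CPM minus the log2 of the control mean (0, dotted line), for the collecting duct genes (left) and the proximal and limb genes (right). Cldn4 reaches 0.86 and 0.74 in mutants 1 and 2 but 0.26 in mutant 3, and Cldn16 lies at -0.23 or lower in the 3 Hes1 cKO libraries.

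The promoters of Cldn4, Cldn3, Cldn7 and Cldn16 are shown because Cldn4, Cldn7 and Cldn16 had the largest differences and Cldn3 is the neighbour of Cldn4. Hes1 is a basic helix-loop-helix repressor known to bind N-boxes (CACNAG) and class C sites (CACGNG). The 250 bases before the start of each gene are from RefSeq on GRCm38.p6, read 5′ to 3′ on the strand of the gene, and capitals mark a match to either motif on either strand (CACGAG fits both). On GRCm38 (GENCODE M21), Cldn4 lies at chr5:134945119-134946934 on the minus strand, and Cldn3 at chr5:134986214-134987472, Cldn7 at chr11:69964779-69967885 and Cldn16 at chr16:26463135-26482765 on the plus strand. Each window directly precedes its gene. The windows are chr5:134946935-134947184 (minus strand) for Cldn4, chr5:134985964-134986213 (plus) for Cldn3, chr11:69964529-69964778 (plus) for Cldn7 and chr16:26462885-26463134 (plus) for Cldn16.
Cldn4: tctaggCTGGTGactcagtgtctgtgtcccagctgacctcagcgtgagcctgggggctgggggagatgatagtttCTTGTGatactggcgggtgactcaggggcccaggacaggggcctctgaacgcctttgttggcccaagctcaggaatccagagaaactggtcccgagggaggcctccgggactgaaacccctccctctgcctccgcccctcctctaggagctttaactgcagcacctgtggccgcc
Cldn3: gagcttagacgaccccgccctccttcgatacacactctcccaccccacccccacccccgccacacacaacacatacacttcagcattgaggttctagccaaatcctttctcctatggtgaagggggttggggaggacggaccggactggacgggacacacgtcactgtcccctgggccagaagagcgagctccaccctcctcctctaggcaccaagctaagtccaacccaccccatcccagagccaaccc
Cldn7: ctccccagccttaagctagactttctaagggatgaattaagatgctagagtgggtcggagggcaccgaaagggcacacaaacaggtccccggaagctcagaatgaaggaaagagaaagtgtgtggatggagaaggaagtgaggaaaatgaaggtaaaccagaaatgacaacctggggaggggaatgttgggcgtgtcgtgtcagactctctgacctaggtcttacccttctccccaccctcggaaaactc
Cldn16: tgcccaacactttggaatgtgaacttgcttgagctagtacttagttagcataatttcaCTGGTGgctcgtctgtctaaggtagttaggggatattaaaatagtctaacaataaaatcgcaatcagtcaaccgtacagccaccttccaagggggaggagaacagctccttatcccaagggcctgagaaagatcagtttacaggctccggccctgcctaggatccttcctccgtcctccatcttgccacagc

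The Cldn4 window held 2 N-boxes and no class C site, the Cldn16 window 1 N-box, and the Cldn3 window and both annotated Cldn7 windows neither. An N-box was in 36.7% and a class C site in 23.5% of all 32851 windows of this length, and 49.4% held at least 1 of them. The Cldn1 window held 1 of each motif, the upstream Cldn10 window 1 N-box, the Cldn5 and downstream Cldn10 windows 1 class C site each, and the Cldn2 and Cldn19 windows neither. A match is a description of the letters, and no binding was measured. Of the 10 genes, 9 had a window in the table used.

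Of the limb claudins, Cldn16 and Cldn19 together let calcium and magnesium be taken up between the cells of the thick ascending limb. Cldn16 (ENSMUSG00000038148) was at 13.4, 10.8 and 11.8 CPM in mutants 1, 2 and 3, against 15.3, 16.6, 16.1 and 14.7 CPM for controls 1 to 4. Every Hes1 cKO library lay under every control, as was the case for 3.29% of all tested genes. The log2 fold change was -0.39 (interval -0.64 to -0.13, edgeR adjusted p 0.531), and the exact permutation p was 0.0286, the smallest that the 35 splits of 7 libraries allow. It was -0.40 among low-Xist and -0.39 among high-Xist libraries, the second with 1 mutant library, and the interval of their difference was wide, from -0.59 to 0.60. With 200 to 313 counts per library, Cldn16 had the fewest counts of the 10 claudins.

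Cldn10 (ENSMUSG00000022132) was at 113, 102 and 126 CPM in mutants 1, 2 and 3, against 124, 142, 145 and 141 CPM for controls 1 to 4. The groups overlapped only between mutant 3 and control 1. The log2 fold change was -0.28 (interval -0.50 to -0.06, edgeR adjusted p 0.693, exact permutation p 0.0857). The gene makes a sodium-selective form in the thick ascending limb and an anion-selective form elsewhere from separate first exons, and the counts do not separate them. Cldn19 (ENSMUSG00000066058) was at 70.7, 62.1 and 59.9 CPM in mutants 1, 2 and 3, against 72.2, 59.2, 92.5 and 67.9 CPM for controls 1 to 4. Its groups overlapped, with a log2 fold change of -0.18 (interval -0.50 to 0.14, edgeR adjusted p 0.953), and -0.047 without control 3, its highest library. Cldn19 overlaps an antisense gene at its start, whose reads could be counted with it.

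In sum over the 3 genes, limb claudins were at 175 to 197 CPM in Hes1 cKO and 212 to 254 CPM in control, mostly reads of Cldn10. The counts do not separate the limb form of Cldn10 from its form elsewhere, so this sum cannot be placed in the limb alone. For the collecting duct the sum came to 236, 224 and 211 CPM in mutants 1, 2 and 3, against 153, 181, 227 and 187 CPM for controls 1 to 4, where control 3 lay within the Hes1 cKO range. The collecting duct genes took 20.8% to 22.2% of the summed CPM of the 10 claudins in Hes1 cKO and 13.2% to 21.4% in control. The limb genes took 17.3% to 19.5% and 18.2% to 24.0%. Cldn2 alone took 53.5% to 56.1% in Hes1 cKO and 48.6% to 64.8% in control, so the shares of the other genes move with its level. These sums and shares are descriptions and were not tested.

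Cldn2 (ENSMUSG00000047230) of the proximal tubule was at 620, 555 and 542 CPM in mutants 1, 2 and 3, against 753, 636, 515 and 575 CPM for controls 1 to 4. The groups overlapped, and the log2 fold change was -0.11 (interval -0.41 to 0.18, edgeR adjusted p 0.974). Without control 1, its highest library, the value was -0.0071. Cldn5 (ENSMUSG00000041378), the claudin that seals endothelium, was at 27.0, 24.9 and 21.5 CPM for mutants 1, 2 and 3, against 23.8, 21.5, 27.5 and 24.6 CPM for controls 1 to 4, nearly the same range. Its log2 fold change of 0.01 had an interval of -0.26 to 0.28 (edgeR adjusted p 0.996). Cldn1 (ENSMUSG00000022512), a sealing claudin that marks the parietal cells of Bowman's capsule, was at 26.6, 30.3 and 40.5 CPM for mutants 1, 2 and 3, against 19.6, 32.3, 35.1 and 36.3 CPM for controls 1 to 4. Its log2 fold change was 0.07 (interval -0.41 to 0.56, edgeR adjusted p 0.992), and its widest gap was within the controls.

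**Figure D3:**
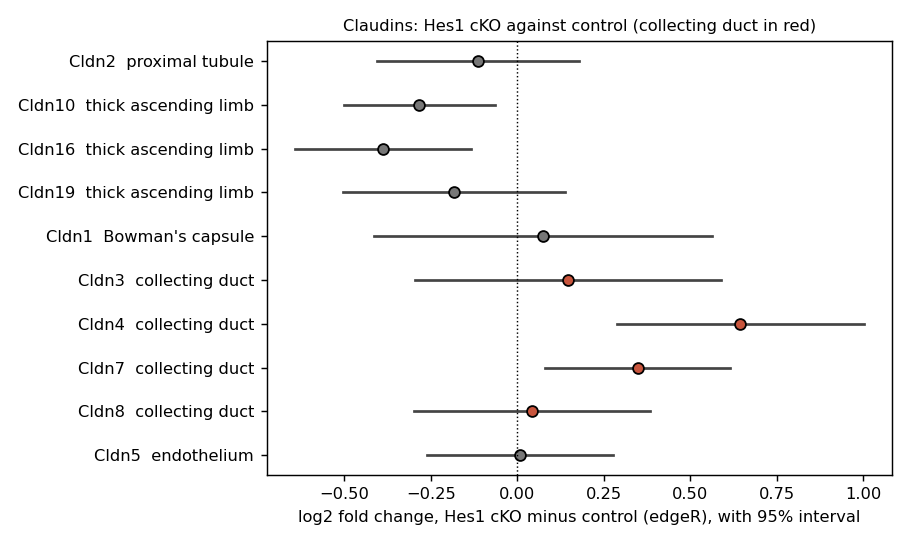
Log2 fold change of each claudin, Hes1 cKO minus control, from edgeR (point) with its unadjusted 95% interval (line), ordered along the nephron with endothelium last. The intervals of Cldn4, Cldn7, Cldn10 and Cldn16 exclude 0, and none of the 10 genes passed after adjustment over all genes.

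The controls differed among themselves. Control 3 had the highest level of 7 of the 10 claudins, and control 1 the lowest level of 5, among them Cldn4, Cldn7 and Cldn8. Leaving out control 1 moved Cldn4 to 0.57 and Cldn7 to 0.26, and leaving out control 3 moved them to 0.75 and 0.42 on the log2 scale, with edgeR adjusted p-values from 0.225 to 0.684. Each claudin had at least 200 counts in every library.

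Of other claudins, 14 of 20 listed symbols were matched in the table and 6 had enough counts to be tested, while the other 8 had at most 8 counts in a library. None of the 6 was called by edgeR, 0 had an unadjusted p under 0.05, and their median log2 fold change was 0.01 (-0.15 without mutant 1). The smallest p among them belonged to Cldn12, a widely expressed claudin, with a mean ± SD of 82.0 ± 10.5 CPM in the 3 mutants and 76.5 ± 8.08 CPM in the 4 controls, and to Cldn15, which forms a cation pore in gut, at 9.05 ± 3.70 against 10.5 ± 2.00 CPM.

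None of the genes for the proteins that claudins work with was called by edgeR. Of 11 junction membrane proteins, 7 had positive and 4 negative log2 fold changes (median 0.04), and 0 were called or had an unadjusted p under 0.05. Marveld3, a tight junction protein of the occludin family, had a log2 fold change of 0.16 and the adhesion molecule Jam3 of -0.30, with edgeR adjusted p-values of 0.934 and 0.905. Of 15 tested junction scaffold genes, 13 had positive values, beside 48.4% of all tested genes. The scaffold median was 0.12, and 0 of these genes were called. Magi1, the scaffold gene with the smallest p of its list, was at 38.6, 43.0 and 46.4 CPM for mutants 1, 2 and 3. Controls 1 to 4 were at 32.0, 36.4, 32.9 and 32.6 CPM. Every mutant was above every control, as was the case for 3.71% of all tested genes. The log2 fold change was 0.35 with SE 0.094 and an adjusted p of 0.465 by edgeR.

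Genes known to regulate claudins were read in the same fit. Of 17 tested, 10 had positive and 7 negative values (median 0.04), and 0 were called. St14, a membrane protease also called matriptase, had the smallest p of this list. It was at 189, 170 and 180 CPM for mutants 1, 2 and 3, and 129, 120, 163 and 139 CPM for controls 1 to 4. Every mutant was above every control, as was the case for 3.71% of all tested genes. The log2 fold change was 0.39 with SE 0.11 and an adjusted p of 0.512 by edgeR. Grhl2, a transcription factor known to activate Cldn4 in the collecting duct, was at 19.6, 19.7 and 16.7 CPM for mutants 1, 2 and 3, against 14.2, 10.6, 16.8 and 16.6 CPM for controls 1 to 4. Only mutant 3 lay within the range of the controls, and the log2 fold change was 0.36 with SE 0.16 and an adjusted p of 0.844 by edgeR. The Cldn4 window held no exact Grainyhead site (AACCGGTT, either strand). Only 0.116% of all windows held this site, so its absence cannot tell whether Grhl2 acts there.

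Markers of the cells that carry these claudins were set beside them. Of 12 intercalated cell genes 10 rose, beside 0.32% of all tested genes called higher, with a list median of 1.31. Their summed level was 1595 to 1710 CPM in Hes1 cKO and 581 to 767 CPM in control. Foxi1, the transcription factor of intercalated cells, had a log2 fold change of 1.87 and the anion exchanger Slc26a4 of 1.57. Of 9 tested principal cell genes, 8 had negative values and 1, the steroid-converting enzyme Hsd11b2, fell (log2 fold change -1.12, edgeR adjusted p 0.0104), beside 0.0192% of all tested genes called lower. The principal cell list had a median of -0.53 and summed to 769 to 1234 CPM in Hes1 cKO and 1266 to 1921 CPM in control, and its water channel Aqp2 had a log2 fold change of -0.78 (edgeR adjusted p 0.512). Of 8 genes that mark the collecting duct in general, 5 had positive and 3 negative values (median 0.10, 0 called), and their sum was 949 to 998 CPM in the mutants and 805 to 992 CPM in the controls. The intercalated and principal cell lists were chosen with their results known, and their part in the claudin values was not tested.

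Cldn4 and Cldn7 are also made by the urothelium that lines the renal pelvis. Of 8 urothelial markers 7 had positive values, beside 48.4% of all tested genes. The urothelial median was 0.15 with 0 called, and none of the markers was at 0 in any library. Summed, they gave 84.9, 50.9 and 63.3 CPM in mutants 1, 2 and 3 and 51.2 to 63.0 CPM in the controls, and mutant 1, with the most, also had the most Cldn4. In mutant 2 that sum was under every control while Cldn4, at 66.9 CPM, was above every control. The uroplakin genes Upk1b and Upk3a had log2 fold changes of 0.22 and 0.15. The highest values of the list, picked out after they were seen, were those of the basal keratin gene Krt5, at 0.60 (edgeR adjusted p 0.841), and of the uroplakin gene Upk1a, at 0.48. Upk1a was at 9.95, 7.42 and 9.18 CPM in mutants 1, 2 and 3, against 6.37, 6.94, 5.76 and 6.33 CPM for controls 1 to 4. Every mutant was above every control in Upk1a, as was the case for 3.71% of all tested genes. It was the 1 gene of the list with an unadjusted edgeR p under 0.05 (0.0108, adjusted 0.622). The part of urothelium in the Cldn4 value was not tested.

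The thick ascending limb list, 7 genes without claudins, had a median of -0.13, with 2 positive and 5 negative values and 0 called. Its sum was 6926 to 8129 CPM in Hes1 cKO and 6789 to 8535 CPM in control, overlapping ranges. In Cldn16 every mutant library was under every control, and the part of limb cells in this was not tested. Slc12a1, the sodium-potassium-chloride cotransporter of this limb, had a log2 fold change of -0.13 and Umod, which encodes uromodulin, of 0.11. The proximal tubule list had a median of -0.16 over 10 genes, beside -0.11 for Cldn2, with Slc34a1, the phosphate transporter, at -0.21. The endothelial list had a median of -0.10, with 2 positive and 8 negative values. Pecam1 was at -0.10 and the receptor gene Kdr at -0.01, beside 0.01 for Cldn5. The lowest value of this list, picked out after it was seen, was that of Emcn, at -0.47 (edgeR adjusted p 0.512). None of the genes of these 3 lists was called by edgeR, and 0 to 1 per list had an unadjusted p under 0.05.

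**Figure D4:**
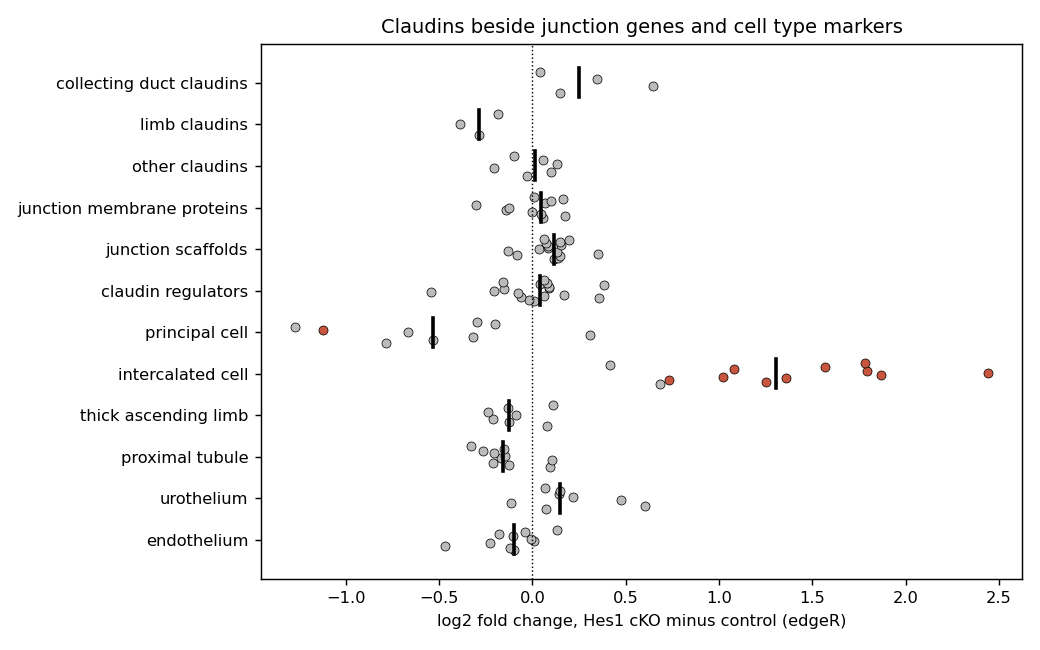
Log2 fold change of each tested gene, Hes1 cKO minus control, for the collecting duct and limb claudins, their partners and regulators, and markers of cell types. Points in red were called by edgeR and bars are medians, 0.25 for collecting duct and -0.28 for limb claudins beside 1.31 for intercalated and -0.53 for principal cell genes.

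The genes whose pattern over the 7 libraries was most like that of a claudin were found by the root mean square difference of mean-centred log2(CPM + 1), among 11215 other genes with a mean of at least 5 CPM. For Cldn4 they were Jag1, a Notch ligand, Sox4, a transcription factor, and Sh3pxd2b, at distances of 0.119, 0.122 and 0.123 log2 units, where Cldn4 itself varied by 0.377. Jag1 was at 99.7, 96.2 and 82.1 CPM in mutants 1, 2 and 3 and 53.7 to 64.4 CPM in the controls. It was called (log2 fold change 0.64, edgeR adjusted p 0.0332). These 3 genes were picked for likeness to Cldn4, so a like order of libraries and a like fold change follow from the search. For Cldn7 they were Pdgfa, Mal2 and Esrp1 (0.0502 to 0.0547), the last an epithelial splicing regulator. For Cldn8 they were Stk39, a kinase of the WNK pathway, 1810014B01Rik and Sytl1 (0.0672 to 0.0685), and for Cldn3 Rgs3, Unc5b and Tmub1 (0.0628 to 0.102). For Cldn16 they were Dbi, Ntrk3 and Pdia4 (0.0399 to 0.0706), for Cldn10 2610015P09Rik, Dpp7 and Uroc1 (0.0397 to 0.0484) and for Cldn19 Selm, Tap2 and Wdr46 (0.0530 to 0.0590). Cldn2 was closest to Pyroxd2, Dao, an amino acid oxidase of the proximal tubule, and B3galt5 (0.0214 to 0.0384), Cldn5 to Gtf2ird1, Zfp710 and Eps15l1 (0.0313 to 0.0396) and Cldn1 to Maoa, Maf and Gm28439 (0.0674 to 0.0720). No gene of 1 claudin's 3 was shared with another's.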

How the data were processed

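Per the labels, whole-kidney total RNA gave 150 bp read pairs from an Illumina NovaSeq. The authors deposited 2 tables of whole-number read counts per gene, with no normalization. FastQC, STAR, DESeq2 and the builds mm10 and GRCm38 are named in the submitters' processing notes, with no role or version. What counted the reads, with which annotation and strand setting, remains not given in the sources used here. The first table has 3 columns named as mutant and 4 as wild type; their numbers match no sample title, so no library has a sex or animal of its own. The 9 columns of the other table show no genotype and were not used. The titles name 7 Hes1 cKO and 9 control kidneys and the series text gives 9 and 7; the titles were followed. By the labels, 4 Hes1 cKO kidneys were female and 3 male, and 3 control kidneys were female and 6 male. Beyond sex, age and treatment, the labels say only that the kidneys came from mutant or littermate mice. The p-values therefore measure the spread between these libraries.

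In edgeR 4.0.16 under R 4.3.3, low genes were removed with filterByExpr (minimum count 10), libraries were scaled by TMM, and genes were tested by edgeR's quasi-likelihood test without covariates, with Benjamini-Hochberg adjustment over all tested genes at 0.05. Standard errors were derived from the F statistic and intervals (95%) from its degrees of freedom. The exact permutation test used log2(CPM + 1). Of the gene identifiers, 99.7% were found in GENCODE M21, which gave exon lengths and positions. The fit was checked on simulated counts. The alternatives were other filters, scalings and tests (DESeq2 1.42.0, limma 3.58.1), each library left out, Xist and adrenal covariates and strata of Xist (above or under 10 CPM). The claudins and lists were chosen with earlier results of these data known. Named were the 10 claudins, Hes1, Xist, the 2 genes with the smallest p of each list of claudins, partners and regulators, 11 markers, and the 3 genes most like each claudin. Of these, 1 gene is not reported here.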

Additional observations from a re-analysis of the deposited data

Results flagged for a closer look

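Among 30 genes read in the 4 control libraries, 1 library stood far from the others for 1 gene. Upk3a, a uroplakin of urothelium, reached 8.34 CPM in control 3, where controls 1, 2 and 4 had 5.74, 5.77 and 5.73 CPM. The gap to the nearest other control made up 0.985 of the spread from lowest to highest, more than Dixon's 95% limit allows. Chance puts a library past this limit in about 1 in 20 groups, and 30 genes were read. The urothelial list as a whole summed to 60.6 CPM in control 3, within the range of the other controls. None of the 10 claudins stood apart in this way, and the 3 Hes1 cKO libraries were not tested.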

How the results depend on the processing

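Over 17 alternatives Hes1 stayed lower and called, at -1.88 (high-Xist libraries) to -1.35 (low-Xist libraries). The count of called genes was 53 and became 102 without a low-count filter, 127 by DESeq2's Wald test and 23 in the low-Xist libraries; without 1 library it ranged from 25 (mutant 2 left out) up to 47 (control 2 left out), with 27 when mutant 1 was left out. The number of claudins called was 0, and 1 (Cldn4) without a low-count filter and by DESeq2; it was 0 in the other 15. Cldn2, Cldn4, Cldn7, Cldn10 and Cldn16 kept their sign in all 17, Cldn2 between -0.24 (low-Xist libraries) and -0.0064 (high-Xist libraries), Cldn4 between 0.13 and 0.95 and Cldn16 between -0.48 and -0.32. The sign turned for Cldn19 in low-Xist libraries (0.013), for Cldn3 in high-Xist libraries (-0.29) and without mutant 1 (-0.019), and for Cldn5 in high-Xist libraries (-0.28), without mutant 1 (-0.070) or 2 (-0.0056) and without control 1 (-0.0029) or 2 (-0.047). It turned for Cldn1 without mutant 3 (-0.11) or control 1 (-0.090), and for Cldn8 without mutant 3 (-0.030) or control 1 (-0.076); none of these was called, and the cause was not tested. With 1 library left out, the highest values of these genes were 0.093 for Cldn5 (mutant 3 out), 0.20 for Cldn1 (mutant 1 out), 0.30 for Cldn3 (mutant 3 out) and 0.16 for Cldn8 (control 3 out). The interaction with Xist class was added after values were seen; it gave 0.016 for Cldn19 in low-Xist libraries, and in high-Xist libraries -0.28 for Cldn5 and -0.29 for Cldn3. No junction or regulator gene was called in any alternative. No paired analysis was possible because the columns carry no replicate number of the titles.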
